A study of Mus musculus with 16 samples.

Results

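The libraries described here were prepared from macrophages of mouse muscle that had not been damaged, and they compare Glud1-deficient mice (genotype label GLUD1 KO, here KO) with WT mice. They are the 4 KO libraries numbered 1, 2, 3 and 5 and the 4 WT libraries numbered 2, 3, 5 and 6 in their labels, 8 of the 16 libraries of the series. The other 8 came from muscle injected with CTX, an agent that the labels give only by that abbreviation, and enter only where the effect of the genotype was compared between the tissues. All cells were sorted on the macrophage surface protein F4/80 and their RNA was amplified as full-length cDNA before sequencing. The promoter or cell type that drives the deletion, the deleted part of the gene, the age of the mice and any pooling were not stated in the sources used here, nor whether other cells lost the gene too.

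Glud1 encodes glutamate dehydrogenase, a mitochondrial enzyme that turns glutamate into 2-oxoglutarate and ammonia and so feeds amino acid carbon into the tricarboxylic acid (TCA) cycle. Glutamine synthetase (Glul) uses glutamate in the other direction, to make glutamine. Macrophages of resting muscle include long-lived resident cells, marked by genes such as Mrc1, Lyve1, Folr2 and Cd163, which take up debris and lipids, and cells supplied by blood monocytes. The series asks how M1, M2 and wound healing genes, the names used for inflammatory, alternatively activated and repair-related macrophage genes, differ in cells without the enzyme. The 8 libraries answer this for the state before injury.

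The 8 libraries held 17051892 to 22521092 counted reads and 16118 to 16846 genes with at least 1 read. Levels are given below as CPM, read counts divided by the scaled size of their library, always in the order WT 2, 3, 5 and 6 and KO 1, 2, 3 and 5. Macrophage genes were abundant in every library. Csf1r, the receptor that macrophages need to survive, lay at 3416 to 4578 CPM in WT and 3177 to 3704 CPM in KO, and Adgre1, which encodes F4/80 itself, at 649 to 859 and 631 to 709.8 CPM. The libraries did not separate by genotype on the first 2 principal components. By reads of Xist and of Y-linked genes, WT libraries 5 and 6 and KO library 5 were from female mice and the other 5 from males, so 2 of 4 WT and 3 of 4 KO libraries were male. Neutrophil markers differed more between libraries than between genotypes, with summed levels of 5854, 2084, 1257 and 577 CPM in WT and 2792, 8507, 2248 and 519 CPM in KO. The numbers 2, 3 and 5 occur in both genotypes and join libraries of the same sex, but on these components KO 5 lay nearer to WT 6 than to WT 5.

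**Figure D1:**
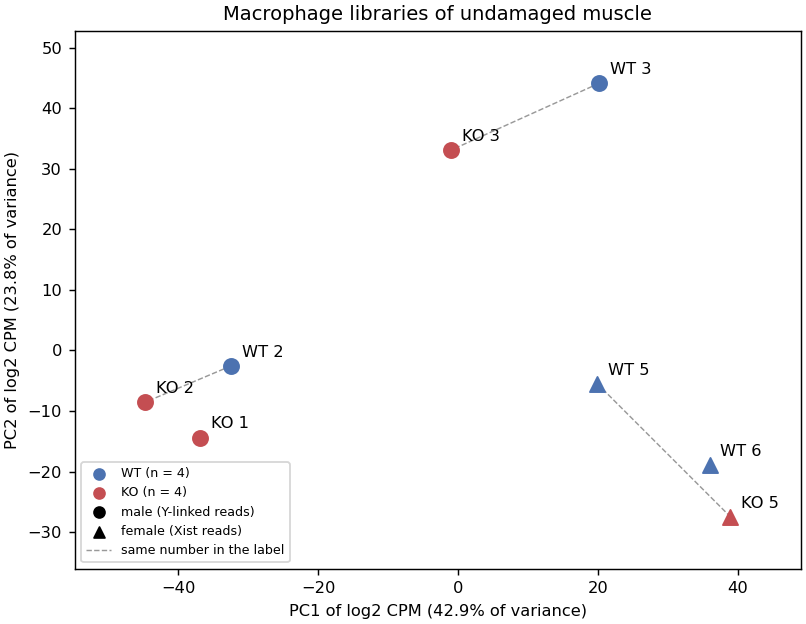
Scores of the 8 libraries on the first 2 principal components of log2 CPM, with genotype by colour, sex by symbol and dashed lines joining KO and WT libraries of the same number. The first component (42.9% of the variance) puts KO 1, KO 2 and WT 2 on one side and KO 5, WT 6, WT 5 and WT 3 on the other, and the second (23.8%) sets KO 3 and WT 3 apart.

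Transcripts of the targeted gene were present at similar levels in both genotypes. Glud1 (ENSMUSG00000021794.16, mm10 chr14:34310727-34345265, plus strand) was at 318, 364, 311 and 271 CPM in WT and 298, 292, 337 and 258 CPM in KO. The groups overlapped, and KO was lower than WT in each of the 3 pairs of equal number, by 0.12, 0.11 and 0.27 on the log2 scale. The log2 difference was -0.09 (95% interval -0.39 to 0.21), and an exact two-sided permutation test of the CPM gave p = 0.486, where 4 against 4 libraries cannot give less than 0.02857. The counts cover the whole gene, so without the position of the deleted part this level neither checks nor contradicts the genotype labels.

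The other genes of glutamine and glutamate metabolism stayed close to WT levels. Of 32 genes listed, 31 passed the filter on low counts, none passed an adjusted p of 0.05 in edgeR's quasi-likelihood test, and their median log2 difference was 0.02, against 0.00 for all 13428 genes tested. Glul was at 153, 123, 177 and 127 CPM in WT and 119, 125, 132 and 137 CPM in KO. All 4 KO values lay within the WT range or just below its lower end, and the log2 difference of -0.18 had a 95% interval of -0.49 to 0.13, which leaves out a 2-fold difference. The aspartate transaminases Got1 (98.4 to 216 CPM in WT, 63.1 to 263 CPM in KO) and Got2 (44.7 to 68.2 and 44.6 to 68.0 CPM) also overlapped. The 1 gene of the 31 whose groups did not overlap, against 0.693% of all genes with KO wholly above WT and 0.432% wholly below, was Aldh5a1, which encodes the succinate semialdehyde dehydrogenase of the GABA shunt. It lay at 0.433, 0.429, 0.240 and 0.419 CPM in WT and 0.727, 0.730, 0.900 and 0.697 CPM in KO, below 1 CPM in every library.

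**Figure D2:**
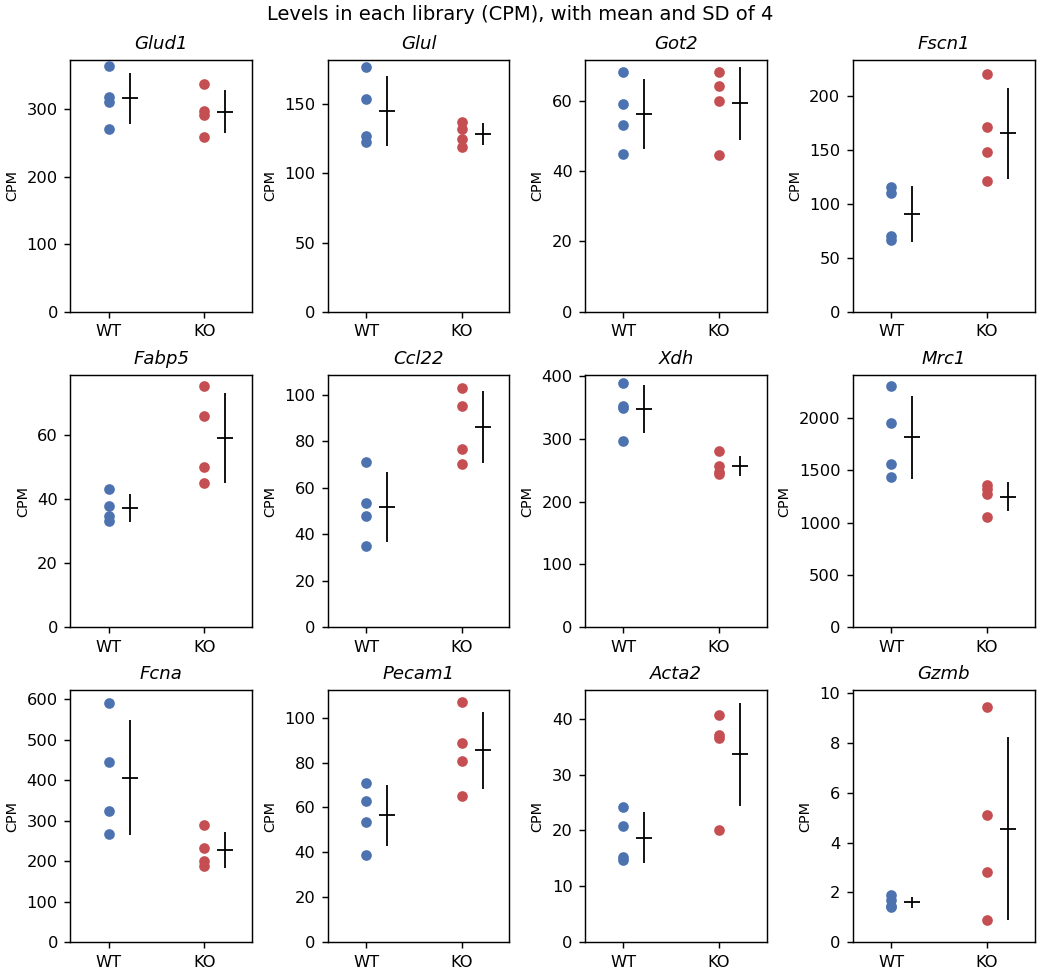
Level of 12 genes in each library (CPM, linear axes from 0; points are libraries, the dash and bar beside them the mean and SD of 4). Glud1, Glul and Got2 overlap between the genotypes, while Fscn1 and Fabp5 lie above and Xdh and Mrc1 below WT in every KO library.

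No gene of amino acid transport or of the TCA cycle passed the test either. Of the 21 transporters tested, 17 had a lower fitted level in KO (median log2 difference -0.17). The glutamine carriers Slc38a2 (444 to 833 CPM in WT, 398 to 704 CPM in KO) and Slc1a5 (101 to 199 and 99.3 to 203 CPM) overlapped between the groups. Slc7a2, a carrier of arginine, was at 2.31, 4.29, 3.12 and 3.45 CPM in WT and 0.778, 1.42, 2.91 and 1.51 CPM in KO, where KO 3 alone reached the WT range. Among 27 TCA cycle genes the median was -0.04, and Ogdh, a subunit of the complex that uses 2-oxoglutarate, was at 261 to 308 CPM in WT and 232 to 305 CPM in KO. Medians were 0.01 for 36 genes of oxidative phosphorylation, 0.01 for 23 of glycolysis and hypoxia, 0.01 for 20 of the integrated stress response, which senses amino acid shortage, and -0.09 for 22 of the oxidant response under NRF2. Arginine and polyamine genes (10 tested) had a median of -0.14, cholesterol synthesis (20) of -0.07 and lysosome genes (22) of -0.06. No gene of these lists passed the test.

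Across all genes, no difference between KO and WT macrophages of undamaged muscle passed the test. edgeR called 0 of 13428 genes higher and 0 lower (percent called 0 in each direction), and the lowest adjusted p was 0.9998. DESeq2 and limma voom, without a term for the numbers, also called none (360 and 1349 genes at an unadjusted p under 0.05). At an edgeR unadjusted p under 0.05 there were 276 genes (2.06%), 200 of them higher in KO (1.49%) and 76 lower (0.566%). Single libraries moved this count of 276, to 838 without KO 5, 723 without WT 2 and 485 without KO 3, and to 133 without KO 1, 143 without WT 5, 160 without KO 2 and 184 without WT 3, with no adjusted call in any of them. The 4 KO values lay wholly above the 4 WT values in 93 genes (0.693%) and wholly below in 58 (0.432%). If libraries were exchangeable between the genotypes, such separation in either direction would have a probability of 0.02857. The shares found lie below that, as the 2.06% of this edgeR fit lies below the 0.05 expected at that unadjusted threshold. This depends on the fit. The count was above 0.05 of the genes tested for voom (1349) and without KO 5 or WT 2. It was also above with a term for the numbers in edgeR (1033) and voom (1255), but below in DESeq2 with (602) or without (360) that term. The comparison was precise for genes of moderate and high level. The 95% interval left out a 2-fold difference in either direction for 77.1% of the genes tested, for 94.5% of those at 16 to 64 CPM, but for 5.81% of those below 1 CPM. With no label that names separate mice, the p-values reflect variation between libraries that could be technical in part.

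**Figure D3:**
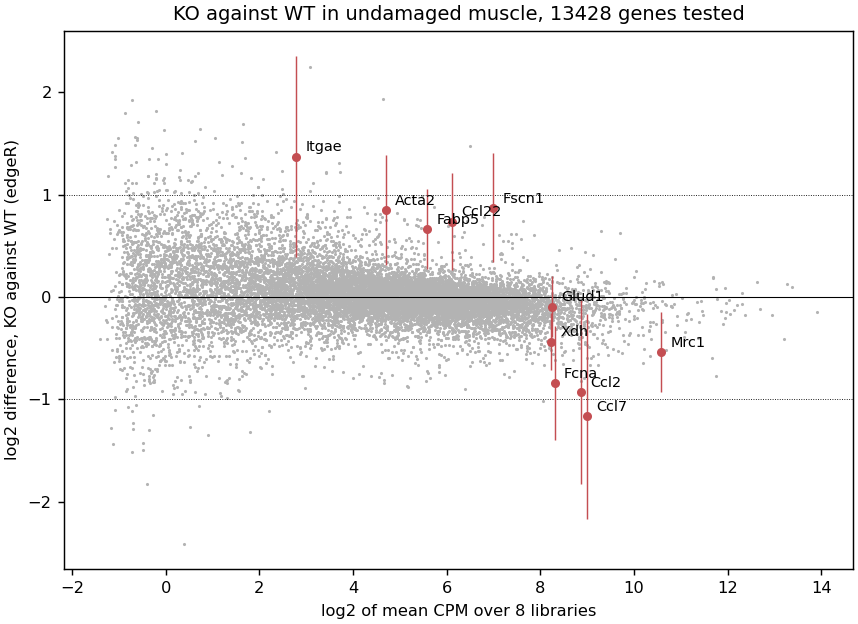
Log2 difference of KO against WT (edgeR) plotted against the log2 of mean CPM over the 8 libraries for the 13428 genes tested, with 11 named genes in red and their 95% intervals (dotted lines: 2-fold). None of the red genes passes the adjusted threshold, and the interval of Glud1 crosses 0.

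Genes with all KO values below all WT values included enzymes and surface molecules of macrophages. The 8 named here are those of smallest unadjusted p among the genes of higher level, given as values since none passed the adjusted test. Since they were picked for separate groups and small p, their gaps and intervals are no test of a difference. Xdh encodes xanthine dehydrogenase, the last enzyme of purine breakdown to uric acid. It was at 297, 389.6, 349.9 and 353 CPM in WT and 248, 280.4, 244 and 256.03 CPM in KO, so that the highest KO library lay just under the lowest WT library. Its log2 difference was -0.44 (95% interval -0.71 to -0.16). Qpct, which encodes an enzyme that forms pyroglutamate at the ends of proteins, was at 45.6, 81.7, 62.8 and 53.0 CPM in WT and 26.9, 40.9, 32.0 and 45.3 CPM in KO (log2 -0.74). S100a10, the partner of annexin A2, was at 213, 289, 289 and 209 CPM in WT and 155, 181, 189.8 and 206 CPM in KO. Here the gap between the groups was narrow, at KO 5 and WT 6. Crip1, a small LIM-domain protein gene, lay at 449 to 634 CPM in WT and 317 to 439 CPM in KO. Npl, a lyase of sialic acid breakdown, was at 39.1 to 63.2 and 31.4 to 38.3 CPM, the adaptor gene Cass4 at 63.1 to 70.7 and 44.8 to 56.5 CPM, and Zfp715, a zinc finger gene, at 29.2 to 40.0 and 24.3 to 28.8 CPM. The eighth, Mrc1, is described with the resident macrophage genes.

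Of the 8 genes named by the same rule with all KO values above all WT values, Fscn1 had the largest log2 difference. It encodes the actin-bundling protein fascin, which is abundant in mature dendritic cells, and was at 115, 66.0, 69.7 and 110.1 CPM in WT and 220.3, 148, 171 and 121 CPM in KO. The closest libraries were WT 2 and KO 5, and the log2 difference was 0.87 (0.34 to 1.40). Fabp5, a fatty acid binding protein gene, was at 34.7, 43.1, 32.9 and 37.9 CPM in WT and 65.8, 49.952, 44.9 and 75.3 CPM in KO (log2 0.67, 0.28 to 1.05). Smaller gaps separated the groups for Rftn1, a lipid raft protein gene (102 to 114 CPM in WT, 124 to 152 CPM in KO), and Tspan7, a tetraspanin gene (13.7 to 28.3 and 28.9 to 46.9 CPM). Lipe, the hormone-sensitive lipase gene, lay at 26.0 to 30.5 and 30.9 to 36.1 CPM, and Ptms at 29.4 to 37.6 and 37.8 to 42.3 CPM. Zfp574 (26.0 to 29.8 and 30.3 to 33.5 CPM) and Traf7 (51.3 to 59.6 and 62.0 to 64.3 CPM) completed the 8 genes. For the Ccr7 receptor gene, another marker of mature dendritic cells, values were 164, 165, 105 and 162 CPM in WT and 217, 144, 451 and 183 CPM in KO, with overlapping groups. Itgae, which marks a class of dendritic cells, was at 3.99, 2.30, 2.98 and 6.12 CPM in WT and 18.2, 10.6, 4.93 and 6.16 CPM in KO, and Flt3, the growth factor receptor of dendritic cells, at 47.4, 17.9, 24.3 and 38.7 and 72.7, 49.4, 47.9 and 46.0 CPM. Of the 10 dendritic cell markers tested, 8 had a positive log2 difference and 2, Bst2 (-0.04) and Ly6d (-0.18), a negative one. The median of the 10 was 0.23 (0.10 to 0.41 over the alternatives). Their summed levels were 486 to 720.0 CPM in WT and 593 to 995 CPM in KO, and none passed the test. The part of such cells in the level of Fscn1 was not tested.

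Genes of resident macrophages had lower fitted levels in KO, though none passed the test. Of 16 resident markers tested, 14 had a negative log2 difference and the median was -0.48, against 0.00 for all genes and -0.25 for the list without WT 5. An unadjusted p under 0.05 with KO lower was found for 5 of the 16, against 0.566% of all genes, and KO values lay wholly below WT for 1 of 16, Mrc1, against 0.432%. The shares of lists given here and below are no test, since the lists were chosen with earlier results of these data known. The summed level of the list was 9785, 11722, 15159.6 and 9143 CPM in WT and 7075, 8749, 8413 and 8581 CPM in KO, so the 4 KO libraries lay below the 4 WT libraries. With library totals in place of the scaling factors the sums overlapped, at 9026 to 14412 CPM in WT and 7482 to 9574 CPM in KO. In bulk RNA, fewer cells of a type and less RNA per cell cannot be told apart.

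Mrc1 encodes the mannose receptor CD206, a scavenger receptor of resident macrophages. It was at 1437, 1951, 2311 and 1564 CPM in WT and 1049, 1269.7, 1357 and 1317 CPM in KO. KO 3 and WT 2 were the nearest libraries, and the log2 difference was -0.54 (95% interval -0.93 to -0.15, edgeR adjusted p = 0.9998). Fcna, which encodes ficolin A, a soluble lectin that activates complement, was at 267, 445, 590.0 and 324 CPM in WT and 187, 201, 233 and 288 CPM in KO. Only KO 5 reached above the lowest WT library, and the log2 difference was -0.84 (-1.40 to -0.28), the most negative of the list. The largest part of the summed level came from F13a1, coagulation factor XIII subunit A, at 3279.5, 4609.7, 4974 and 2698 CPM in WT and 2199, 2824, 3165 and 2127 CPM in KO. The haemoglobin scavenger receptor gene Cd163 was at 854, 967, 1395 and 853 and 495, 729, 678 and 879 CPM. Folr2, a folate receptor gene, lay at 377 to 774 CPM in WT and 321 to 456 CPM in KO, and Lyve1, a hyaluronan receptor gene, at 381 to 726 and 282 to 457 CPM. The lectin genes Cd209f (215 to 580.3 and 154 to 265 CPM) and Cd209g (66.0 to 189 and 45.5 to 98.1 CPM) had their highest value in WT 5. Siglec1 and Timd4, also on the list, did not share the direction clearly, with log2 differences of -0.04 and 0.31. Of the 16 pan-macrophage markers, 15 had a negative log2 difference with a smaller median of -0.17, and the 12 monocyte markers had a median of 0.13.

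The upstream sequences at hand held no entry for Ccl2, Ccl7 or Xdh. Those of 3 other genes with lower fitted levels in KO are shown: the resident markers Mrc1 and Fcna and the chemokine gene Pf4, chosen after their values were seen. They are the bases from 250 to 61 before the RefSeq start site on GRCm38.p6, at chr2:14229164-14229353 (plus strand), chr2:25628035-25628224 (minus strand) and chr5:90772185-90772374 (plus strand), written 5′ to 3′. Capitals mark AGGAAG on either strand, which holds GGAA, the core letters bound by ETS factors such as PU.1, the regulator of macrophage genes. GGAA outside AGGAAG is not marked, and adjacent matches run together.
Mrc1: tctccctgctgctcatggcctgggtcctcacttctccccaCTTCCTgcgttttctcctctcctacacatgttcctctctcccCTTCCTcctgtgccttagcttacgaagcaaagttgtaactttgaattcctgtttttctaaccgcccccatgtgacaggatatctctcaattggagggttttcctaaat
Fcna: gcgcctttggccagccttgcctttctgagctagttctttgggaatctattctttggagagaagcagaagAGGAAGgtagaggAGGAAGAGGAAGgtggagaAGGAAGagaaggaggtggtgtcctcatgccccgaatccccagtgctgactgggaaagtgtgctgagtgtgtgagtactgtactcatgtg
Pf4: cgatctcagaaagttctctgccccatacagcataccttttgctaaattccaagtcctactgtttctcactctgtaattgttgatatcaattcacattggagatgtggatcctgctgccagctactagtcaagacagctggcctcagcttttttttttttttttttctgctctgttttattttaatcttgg
The window of Mrc1 held 2 matches of AGGAAG, that of Fcna 4 and that of Pf4 none, while 22.71% of 32851 promoter windows of the same length held at least 1. All 3 windows also hold GGAA on 1 strand or the other outside these matches. A match describes the letters and is not shown to be a binding site.

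Most chemokine genes had lower fitted levels in KO, and among them was the gene called when libraries of equal number were compared with each other. Of 20 chemokine genes tested, 16 had a negative log2 difference (median -0.40, or -0.26 without WT 3). KO values were wholly below WT for 1 of the 20, Ccl9, against 0.432% of all genes, and 4 of 20 had an unadjusted p under 0.05 with KO lower, against 0.566% of all genes. Ccl7 encodes a chemokine that draws monocytes through the receptor CCR2, and it lies beside Ccl2 (mm10 chr11:82045712-82047525 and chr11:82035571-82037453, both on the plus strand). Its level was 269, 921, 883 and 770.0 CPM in WT and 249.7, 131, 475 and 409.8 CPM in KO. The groups overlapped through WT 2, the lowest WT library, yet within the numbers 2, 3 and 5 KO was lower by 1.03, 0.95 and 1.11 on the log2 scale. Without a term for the number the log2 difference was -1.17 (95% interval -2.17 to -0.17, edgeR adjusted p = 0.9998, unadjusted p = 0.0267). With the number as a block, edgeR gave -1.03 (adjusted p = 0.0258), and Ccl7 was the 1 gene called (0.00745% of those tested lower in KO, 0% higher). That fit rests on 3 pairs and 2 residual degrees of freedom, and with library totals in place of scaling factors its adjusted p for Ccl7 was 0.0571. On data simulated with an effect of the number, blocked fits made more false calls than the threshold allows. The size of that effect was set rather than estimated from these libraries, so the error rate of this call is not known.

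Ccl2, the main ligand of the same receptor, followed Ccl7 closely. It was at 250.4, 816, 753 and 642 CPM in WT and 275, 152, 457 and 407 CPM in KO, lower by 0.72, 0.83 and 0.89 on the log2 scale within the 3 numbers (blocked edgeR log2 -0.81, adjusted p = 0.0733). Cxcl1, which attracts neutrophils, was at 233, 992, 541 and 608 CPM in WT and 192, 109, 694 and 352 CPM in KO, again low in both libraries numbered 2 and high in both numbered 3. Pf4, platelet factor 4, which resident macrophages also make, was at 431, 579, 641 and 353 CPM in WT and 261, 355, 334 and 361 CPM in KO. The CCR1 ligand gene Ccl9 was at 927, 1027, 1483 and 925 CPM in WT and 752, 738, 764 and 920.2 CPM in KO, with a narrow gap between the groups at KO 5 and WT 6. Ccl6, another ligand of that receptor, was at 1298, 1115, 2374 and 1428 CPM in WT and 878, 1017, 786 and 1498 CPM in KO, and KO 5 lay above WT 2, 3 and 6. WT 5 was the highest library for both. The receptor gene Ccr1 itself was at 114, 550.1, 418 and 351 CPM in WT and 95.6, 104, 290.3 and 221 CPM in KO, lowest in WT 2, KO 1 and KO 2. Chemokine genes with positive log2 differences were Ccl5 (0.40), Cx3cl1 (0.35), Cxcl13 (0.34) and Cxcl10 (0.33), and none of these passed the test.

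DESeq2 with the same block called 44 genes, 4 higher (0.0298%) and 40 lower (0.298%), and gave no adjusted p for 8331 genes. The shares are of all 13428 genes, and are larger among the genes that had an adjusted p and so could be called. Of the 40 lower genes, 8 were among the 20 chemokine genes and 6 among the 16 resident markers. They also held 3 of the 9 mast cell markers (Cma1, Cpa3 and Tpsb2) and 1 of the 8 eosinophil markers (Prg2), and the part of such cells in the other calls was not tested. Each of the 44 had the direction of its call in 3 of 3 pairs. The blocked fit rests on these pairs, so this is no separate support for the calls. They included Ccl7 (log2 -1.03), Ccl2 (-0.81), Wfdc17 (-0.84), which encodes a secreted protease inhibitor-like protein, Fcna (-0.80), Retnla (-0.57), Mrc1 (-0.51) and, with KO higher, Fscn1 (0.84) and Flt3 (0.79). edgeR and voom with that block called Ccl7 alone, so the other 43 calls depend on the tool. On the same simulated data the excess of false calls was larger for blocked DESeq2 than for blocked edgeR, which does not give the error rate of the 44 calls.

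**Figure D4:**
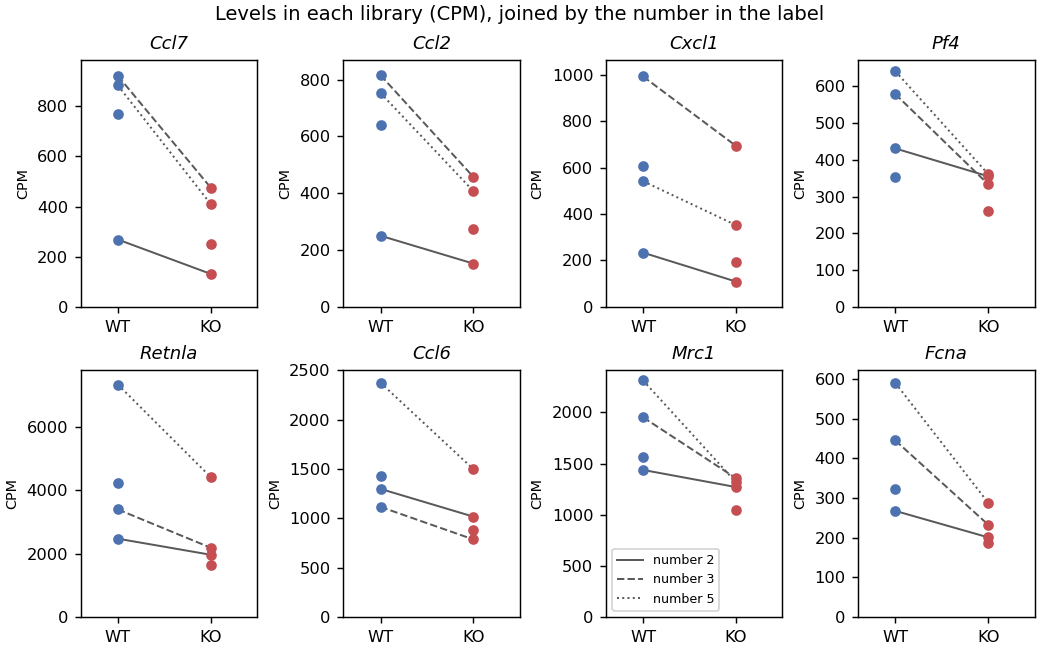
Level of 8 chemokine, resident and M2 genes in each library (CPM, linear axes from 0; blue WT, red KO), with lines joining KO and WT libraries of the same number (2 solid, 3 dashed, 5 dotted; KO 1 and WT 6 have no partner). Every line falls from WT to KO, while for Ccl7, Ccl2 and Cxcl1 the libraries numbered 2 lie lowest in both genotypes.

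The M1, M2 and wound healing genes named in the design of the study gave no call between the genotypes in edgeR. DESeq2 with the number as a block called 4 of the 23 M2 genes and 1 of the 23 M1 genes lower in KO, against 0.298% of all genes. It called none of the wound healing genes. None of the 23 M1, 23 M2 and 32 wound healing genes tested passed the test, and their median log2 differences were -0.14, -0.18 and -0.19. Over the alternatives these medians ran from -0.21 to 0.01, -0.36 to -0.05 and -0.32 to 0.01. Among inflammatory genes Il1b was at 804, 1151, 917 and 1510.0 CPM in WT and 1017, 590.3, 1197 and 1061 CPM in KO, Tnf at 158, 341, 289 and 285 and 187, 136, 271 and 311 CPM, and Il6 at 24.7 to 47.0 and 19.6 to 40.9 CPM. The ranges of these cytokine genes overlapped. Nos2, which encodes inducible nitric oxide synthase, was low, at 1.35 to 2.88 CPM in WT and 1.0956 to 3.13 CPM in KO. Of M2 genes, Retnla (RELM-alpha) was at 2474, 3398, 7343 and 4238 CPM in WT and 1627, 1965, 2187 and 4419.9 CPM in KO. WT 5 and KO 5 were the highest libraries of their groups, and the log2 difference of -0.78 had an interval of -1.64 to 0.09. In the opposite direction, Ccl22, a ligand of CCR4, was at 70.9, 53.2, 34.9 and 48.0 CPM in WT and 103, 70.2, 95.3 and 76.5 CPM in KO (log2 0.74, 0.26 to 1.21), where only KO 2 did not exceed the highest WT library. Arg1, arginase 1, lay at 0.750 to 1.73 CPM in WT and 0.847 to 2.27 CPM in KO. Wound healing genes included Igf1, a growth factor for muscle (167 to 248 CPM in WT, 148 to 179.7 CPM in KO), Tgfb1 (275 to 413 and 286 to 401 CPM), Vegfa (94.4 to 146 and 90.6 to 179 CPM) and the elastase gene Mmp12, at 120.1, 110.3, 155 and 167 CPM in WT and 256.05, 132, 177 and 233 CPM in KO. Thbs1 was high in both libraries numbered 3 (5403 CPM in WT, 4932 CPM in KO) and at 1105 to 1812 CPM in the other 6.

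Other programmes showed medians near 0. MHC class II genes (10 tested) had a median log2 difference of -0.07, with Cd74 at 14542 to 18673 CPM in WT and 12568 to 16732 CPM in KO. The median was 0.07 for 29 interferon response genes, -0.07 for 23 immediate early and heat shock genes and 0.03 for 18 genes of lipid handling. Within the last list Abcg1, a cholesterol exporter gene, was at 139, 100.2, 115 and 133 CPM in WT and 193, 138, 150.3 and 175 CPM in KO, and Gpnmb had a log2 difference of 1.48, while Cd36 lay at 555 to 1021 and 412 to 717 CPM. Proliferation genes (25) had a median of 0.19 and ribosomal protein genes (33) of 0.11, which turned to -0.12 with the number as a block.

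**Figure D5:**
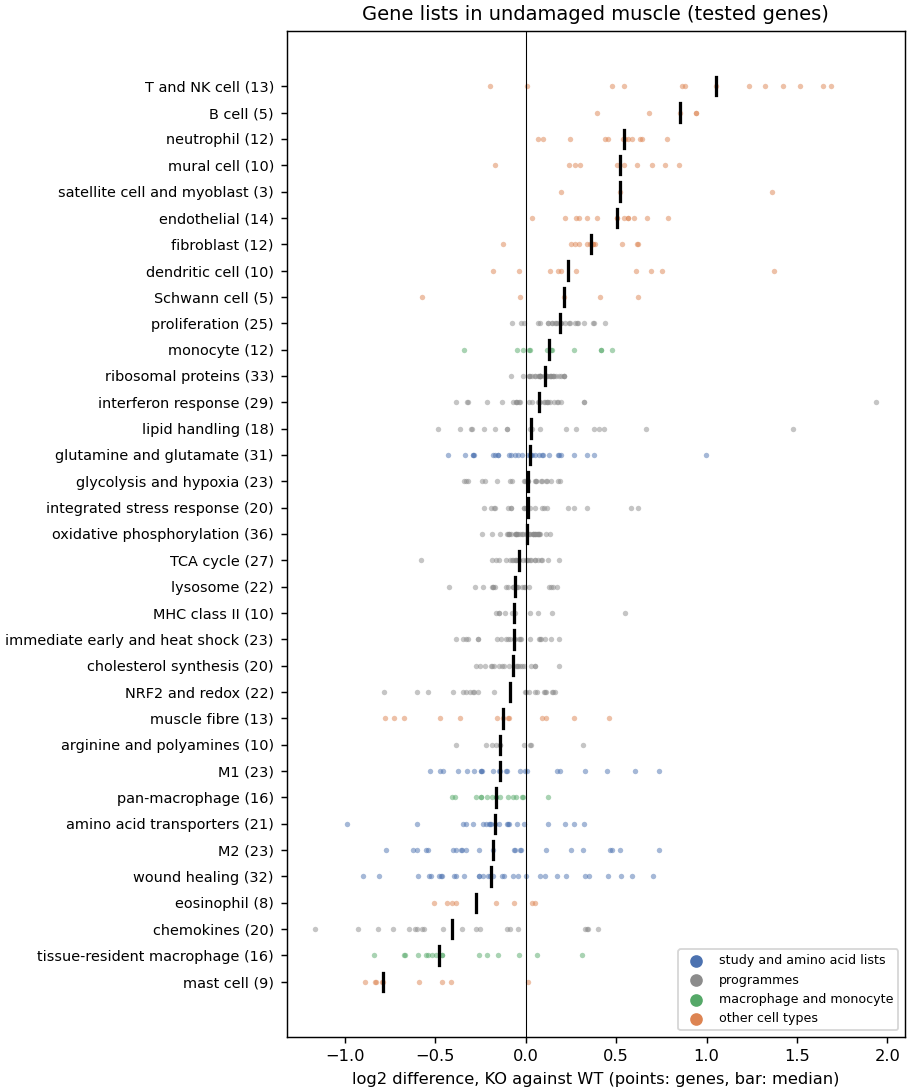
Log2 difference of KO against WT (edgeR) for each tested gene of 35 lists with at least 3 tested genes (number in brackets), with the median as a bar and lists ordered by it. Mast cell, resident macrophage and chemokine lists lie lowest, and T and NK cell, B cell, neutrophil, mural, satellite cell and endothelial lists highest, while no gene passed the test. Without WT 5 the mast cell median is -0.087.

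Markers of several cell types other than macrophages had positive median log2 differences, though none passed the test. All 14 endothelial markers had a positive log2 difference (median 0.50), with summed levels of 272 to 328 CPM in WT and 314 to 429 CPM in KO, and 4 had an unadjusted p under 0.05 with KO higher, against 1.49% of all genes. Pecam1, an adhesion protein of endothelium that some leukocytes also carry, was at 70.8, 38.7, 62.8 and 53.5 CPM in WT and 107, 88.8, 80.8 and 65.2 CPM in KO, with KO 5 within the WT range. Mural cell markers gave a median of 0.52 over 10 genes (0.87 with male libraries only) and sums of 64.8 to 92.9 CPM in WT and 73.6 to 159 CPM in KO. Acta2, smooth muscle actin, was at 24.1, 14.6, 15.2 and 20.7 CPM in WT and 36.6, 40.7, 37.0 and 20.1 CPM in KO, where KO 5 alone lay in the WT range. T and NK cell markers had a median of 1.05 over 13 genes (0.63 without KO 1, 0.58 with the block, 0.25 with the stricter filter) and sums of 169.8 to 278 CPM in WT and 211 to 459 CPM in KO. Gzmb, granzyme B, was at 1.44, 1.39, 1.87 and 1.67 CPM in WT and 9.44, 5.11, 2.81 and 0.872 CPM in KO, so KO 1, 2 and 3 lay above every WT library and the female KO 5 below. B cell markers (5 tested) had a median of 0.86 (0.32 to 1.32 over the alternatives) and sums of 23.6 to 51.4 and 22.4 to 78.9 CPM, and fibroblast markers (12) a median of 0.36 (0.17 to 0.51) and sums of 718 to 1273 and 733 to 1727 CPM. Neutrophil markers (12) had a median of 0.54, which turned to -0.23 with the block. Mast cell markers (9) had a median of -0.79, which was -0.087 without WT 5 and -0.51 without KO 3, and sums of 201 to 609 and 181 to 311 CPM, the highest of which was WT 5. Eosinophil markers (8) had a median of -0.27 (-0.77 to 0.48) with sums of 211 to 1351 and 212 to 961 CPM, and muscle fibre markers (13) of -0.13 with 50.2 to 103 and 48.5 to 108 CPM. Satellite cell and myoblast markers (3 tested) had a median of 0.52 (0.30 without KO 3) and Schwann cell markers (5) of 0.21, while 2 erythroid markers and 1 adipocyte marker were high enough to test. None of these markers passed the test, and each list overlapped between the groups. How far these cells contribute to the differences in macrophage genes was not tested.

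The effect of the genotype was compared between undamaged and CTX-injected muscle with a test of the difference itself. edgeR called 0 of 13649 genes (0% in each direction), with 634 (4.65%) at an unadjusted p under 0.05 and a lowest adjusted p of 0.0772. Xdh, Igfbp7 and Lyz1 were among the genes with that value. For Xdh the KO-minus-WT difference was lower in undamaged than in injected muscle by a log2 of -0.94 (SE 0.16), with KO below WT in undamaged muscle and a KO-minus-WT log2 difference of 0.50 in injected muscle. For Igfbp7, an insulin-like growth factor binding protein gene of vessels, the difference between the effects was 1.39 (SE 0.24). Its level in undamaged muscle was 39.4, 25.6, 31.0 and 31.4 CPM in WT and 60.8, 55.5, 55.4 and 34.8 CPM in KO. Lyz1 had one of -1.70 (SE 0.29), but it is a near-identical copy of Lyz2, and since the handling of reads that match both is not given, its value is uncertain. For Ccl7 the effects differed by -0.94 (SE 0.54) and for Fcna by -1.33 (SE 0.52), with edgeR adjusted p = 0.9999 and 0.914, so neither is shown to be particular to undamaged muscle. Without KO 5 the same test called 18 genes with a higher and 2 with a lower difference of 13772 tested, Xdh, Igfbp7 and Lyz1 among them. DESeq2 with all libraries called 39 and 9 of 13649. Both sets of calls also held markers of the mural, endothelial and fibroblast lists, such as Acta2 and Dcn. The part of such cells in these calls was not tested. Injected muscle held only male libraries, so sex and tissue are partly confounded in this comparison.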

How the data were processed

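The authors deposited 1 table of raw read counts per gene symbol (whole numbers, not normalized) for 16 libraries, of which 8 were used for the main comparison. The submitters' processing notes name FastQC 0.11.7, cutadapt 1.18, HISAT2 2.1.0 and featureCounts of Subread 1.6.2, with mm10. Per the labels' protocols the kit was SMART-Seq V4, which keeps no strand, so reads of overlapping antisense genes cannot be told apart. The gene annotation and the handling of reads with several matches are not given in the sources used here. The table held 24421 symbols, 5665 without a read in these 8 libraries. Coordinates came from GENCODE M21 and upstream sequences from RefSeq, both on GRCm38, the assembly of mm10.

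Genes were filtered with filterByExpr by genotype, scaled with TMM factors over the 8 libraries and tested with the robust quasi-likelihood test of edgeR 4.0.16 in R 4.3.3, with Benjamini-Hochberg adjustment over all 13428 genes and a threshold of 0.05. Intervals are 95% and the prior count of log2 CPM is 2. The difference between the tissues was tested over all 16 libraries. Amplified reads carry no molecular identifiers. Pairs of libraries of 1 group differed by 30.8 to 97.3 in chi-square per degree of freedom, so none was a duplicate.

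The labels of KO and WT share the numbers 2, 3 and 5. Deviations from the group means correlated across genes by 0.65, 0.58 and 0.26 within these numbers, each above 0.1, and the numbers were taken to pair the libraries. KO 5 correlated more with WT 6 (0.59) than with WT 5, and KO 1 with WT 2, of unequal number, by 0.48, more than the pair numbered 5. No label says what the number marks. The fit with the number as a block is given where it changes a call. On data simulated without an effect of the number, the main fit recovered the changed genes with few false calls. On data simulated with such an effect, blocked fits exceeded their nominal share of false calls, more so with DESeq2. The main fit was not run on the latter, and the size of the effect was set rather than estimated from these libraries. The simulations therefore do not give the error rate of either fit here.

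Named genes were Glud1, the 8 higher and 8 lower genes of smallest unadjusted p with separate groups and a mean log2 CPM of at least 5, the 2 members of smallest p and the 2 of highest level of each of 38 gene lists, and calls of the blocked fit. Predicted and sex-linked genes were left out. Other genes were chosen after their values were seen, namely Adgre1, Adgrg5, Arg1, Ccl2, Ccl5, Ccl9, Ccr1, Cd163, Cd209f, Cd209g, Cx3cl1, Cxcl1, Cxcl10, Cxcl13, Folr2, Glul, Got1, Got2, Gpnmb, Igf1, Igfbp7, Il6, Lyve1, Nos2, Siglec1, Slc1a5, Tgfb1, Timd4, Tnf, Tpsb2, Vegfa, Wfdc17 and Lyz1. A few genes are not reported here. The members and lists were chosen with earlier results of these data known. Of 647 listed symbols, 639 were in the table. Alternatives were RLE factors, library totals, no or a stricter filter (5 CPM in 4 libraries), DESeq2 1.42.0, voom of limma 3.58.1, all 16 libraries, a sex term, male libraries only, the block and leaving out each library.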

Additional observations from a re-analysis of the deposited data

Results flagged for a closer look

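Libraries far from the other 3 of their genotype were sought in 484 groups of 4. These held the tested genes named by the rules above, not all of which are described there, the list sums and the library totals. A library is given here where its gap to the nearest other one as a share of the range of the group exceeded Dixon's 95% critical value, which chance alone gives in about 1 in 20 groups, and 33 were found. Values are CPM, summed over the members for lists, each with the range of the other 3 libraries of that genotype. KO library 1 stood apart from the other KO libraries in Flt3 (72.7 against 46.0 to 49.4), H2-Ab1 (7956 against 5684 to 5927) and Traf7 (62.0 against 63.9 to 64.3). KO library 3 did so in Aldh5a1 (0.900 against 0.697 to 0.730), Atf3 (1525 against 1812 to 1821), Ccr3 (8.79 against 37.7 to 42.8), NRF2 and redox list (7122 against 4684 to 4904), Thbs1 (4932 against 1105 to 1489), Trib3 (4.82 against 2.91 to 3.17) and glutamine and glutamate list (1848 against 1377 to 1455). In KO library 5 this held for Acly (243 against 307 to 319), Ccl24 (289 against 111 to 132), Ccl9 (920.2 against 738 to 764), Myh11 (12.8 against 24.6 to 26.5), Pvalb (1.22 against 0.284 to 0.424) and TCA cycle list (2571 against 3103 to 3142). Among WT libraries, WT 2 stood apart in B cell list (51.4 against 23.6 to 25.0), Cxcr2 (13.4 against 3.99 to 4.71), Ifi44 (27.9 against 2.89 to 6.65), Klrb1c (1.88 against 1.02 to 1.06) and Nkg7 (10.4 against 1.99 to 2.93). WT 3 was apart in Asns (5.41 against 2.79 to 3.22), Il10 (133 against 43.1 to 54.2) and Thbs1 (5403 against 1364 to 1812). For WT 5 the genes were Aldh5a1 (0.240 against 0.419 to 0.433), C1qb (2948 against 1793 to 1925), Ccl24 (353 against 208 to 228), Ccr7 (105 against 162 to 165), Cma1 (103 against 23.1 to 32.6) and Cpa3 (127 against 34.8 to 48.3). For WT 6 they were Acly (282 against 330.0 to 334), Ddit3 (53.6 against 35.8 to 37.7) and Irf7 (309.6 against 142 to 163). Thbs1 was high in both libraries numbered 3, and Ccl24 in both numbered 5. The causes were not tested.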

How the results depend on the processing

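The count of called genes stayed at 0 with RLE factors, library totals, DESeq2, voom, either filter, a sex term, male libraries only, all 16 libraries and without each library in turn (range 0 to 0 in each direction). With the replicate block it was 1 lower with edgeR, 1 lower with voom, 1 lower with RLE factors, 0 with library totals, and 4 higher and 40 lower with DESeq2. The blocked fit has 2 residual degrees of freedom, and KO 1 and WT 6 add nothing to it. For the difference between tissues DESeq2 called 39 higher and 9 lower, and leaving out each library gave 0 to 18 higher and 0 to 2 lower, the upper values without KO 5. The log2 difference of Ccl7 ranged from -1.58 to -0.91 over 26 alternatives, that of Fcna from -1.005 to -0.61 and that of Mrc1 from -0.65 to -0.40. List medians ranged from -0.61 to -0.25 for resident markers, -0.53 to -0.26 for chemokines, 0.37 to 0.65 for endothelial and 0.25 to 1.43 for T and NK cell markers. Medians kept their sign under every alternative run for the resident, chemokine, M2, pan-macrophage, amino acid transporter, endothelial, mural, fibroblast, mast cell, dendritic cell, satellite cell, B cell and T and NK cell lists, and those of all other lists, M1 and wound healing among them, were on both sides of 0. Among genes called by blocked DESeq2, Adgrg5 was called higher (0.78) but had an unblocked edgeR log2 difference of -0.14. Of the called genes followed through all alternatives, 3 changed sign. Ccl8 (-0.04) was at 0.060 with library totals, 0.11 with voom, -0.45 to 0.19 without 1 library, and 0.019, 0.17 and 0.14 without both libraries numbered 2, 3 or 5. Prg2 (-0.41) was at 1.87 with voom, -1.18 to 0.85 without 1 library (0.85 without WT 2) and 0.11 without both numbered 2. Srxn1 (-0.78) ranged from -1.96 to 0.093 without 1 library, the latter without WT 3. The cause was not tested. The settings that combine the block with another choice, or leave out both libraries of a number, were chosen after seeing the data. Depth limits genes below 1 CPM, where few intervals leave out a 2-fold difference.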
